A study of Mus musculus with 5 samples.

Results

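The genes described here are the heat-shock proteins and their DnaJ cochaperones, taken as the 74 rows of the count tables, out of 35976, whose gene symbol begins with Hspa, Hspb, Hspd, Hspe, Hsph, Hsp90, Dnaja, Dnajb or Dnajc and does not contain "-ps". By textbook role they were placed in lists of 11 heat-inducible cytosolic chaperones, 10 constitutive cytosolic chaperones, 14 chaperones of the endoplasmic reticulum (ER), 10 of mitochondria, 6 J proteins of vesicles, 5 J proteins of the nucleus and RNA, and 7 small heat-shock proteins. The other 11 are in no role list; the prefixes also take in Hspbap1 and Hspbp1, which encode binding partners of these chaperones and not chaperones themselves. Hsp70 proteins (the Hspa genes) bind stretches of unfolded protein and release them in cycles of ATP hydrolysis. J proteins (the Dnaj genes) bring clients and start hydrolysis, Hsp110 proteins (Hsph1, Hspa4, Hspa4l) exchange the nucleotide, and Hsp90 takes over many kinases and receptors for their last folding steps. Some of these genes are kept on in every cell, while others are driven by the heat-shock factor Hsf1 when unfolded protein builds up in the cytosol, or by the unfolded protein response when it builds up in the ER.

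RNA was sequenced in bulk from mature CD8 single-positive thymocytes, the cells of the killer T cell lineage late in thymic development, purified from mouse thymus by flow cytometry. The 3 Runx3 +/WRPW libraries came from mice heterozygous for an allele of Runx3 named WRPW, and the 2 Runx3 +/+ libraries from mice with unaltered Runx3, a transcription factor of the CD8 lineage. The comparison asks which transcripts differ when a WRPW copy replaces a normal one. The labels name no other allele and give neither what the WRPW change is nor strain, age, treatment or pooling. Nor do they say whether replicate libraries are from different mice, and p-values therefore measure only how far these samples scatter, which could be technical.

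Total counts were 43758550, 15715242 and 21857093 in Runx3 +/WRPW libraries 1, 2 and 3 and 21635675 and 25526389 in Runx3 +/+ libraries 1 and 2. The 74 genes took 0.843% to 1.04% of counts in Runx3 +/WRPW libraries and 0.782% and 0.997% in Runx3 +/+ libraries. Runx3 +/WRPW library 2 stood apart, with a count at 27414 genes, against 17237 to 18967 in the other 4 libraries. Runx3 itself was at 394, 341 and 422 CPM (counts scaled to library size with TMM factors) in Runx3 +/WRPW and at 273 and 357 CPM in Runx3 +/+ (adjusted p = 0.234), which cannot show the allele. CD8 thymocyte markers (6 genes with a row) summed to 5592 to 6074 CPM in Runx3 +/WRPW and to 6338 and 6646 CPM in Runx3 +/+, and those of B, myeloid, erythroid and stromal cells to no more than 19.6 CPM in any library, the highest being stromal in Runx3 +/WRPW library 2. Of these markers, Hba-a1 had no count in any library. Dividing-cell markers (Mki67, Top2a, Ccnb1, Cdk1, Birc5) fell 5 of 5, with sums of 69.3, 76.0 and 75.5 CPM in Runx3 +/WRPW and 501 and 540 CPM in Runx3 +/+. Immature thymocyte markers summed to 3.24 to 5.83 CPM in Runx3 +/WRPW and to 13.7 and 17.4 CPM in Runx3 +/+. Most of each sum was Dntt, which was called lower (5.26, 2.18 and 2.53 CPM in Runx3 +/WRPW, 12.7 and 11.8 CPM in Runx3 +/+). Rag1 went the other way without passing, with means of 0.559 CPM in Runx3 +/WRPW and 0.380 CPM in Runx3 +/+ (edgeR adjusted p = 0.639). In bulk RNA fewer cells of a type and less RNA per cell cannot be told apart.

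Most heat-shock and DnaJ genes did not pass the test between the genotypes. Of the 74 genes, 63 passed the filter on low counts, and 6 were called at an adjusted p under 0.05 with edgeR's quasi-likelihood test: Dnaja4, Dnajb2 and Dnajb14 rose in Runx3 +/WRPW and Dnajb5, Dnajc10 and Dnajc8 fell. Over all 13666 genes tested, 13.6% were called, 6.24% higher and 7.33% lower, so 6 of 63 is no excess over the background. At an unadjusted p under 0.05 there were 19 of the 63, beside 4077 of all 13666 genes, much the same share. The median log2 fold change of the 63 was -0.03, against 0.02 over all genes tested. In 11 of the 63 every Runx3 +/WRPW library lay above both Runx3 +/+ libraries and in 16 every one lay below, where 24.7% and 23.8% of all genes did so (48.5% in either direction). With RLE factors 6 members and 13.3% of all genes were called. DESeq2 called 9 members and 19.8% of all genes, limma-voom 7 and 14%, the fit without a filter on low counts 4 and 3.77%, and the fit with the replicate number as a block 3 and 5.52%. Without Runx3 +/WRPW libraries 1, 2 and 3 the members called were 2, 5 and 3, beside 5.71%, 10.8% and 6.97% of all genes, and without Runx3 +/+ libraries 1 and 2 they were 1 and 0, beside 2.95% and 1.52%. All 6 called genes are J proteins, and no gene of the Hspa, Hspb, Hspd, Hspe, Hsph or Hsp90 families was called. J proteins also make up most of the 63 tested genes, and with 6 calls no difference between the families can be read from this.

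**Figure D1:**
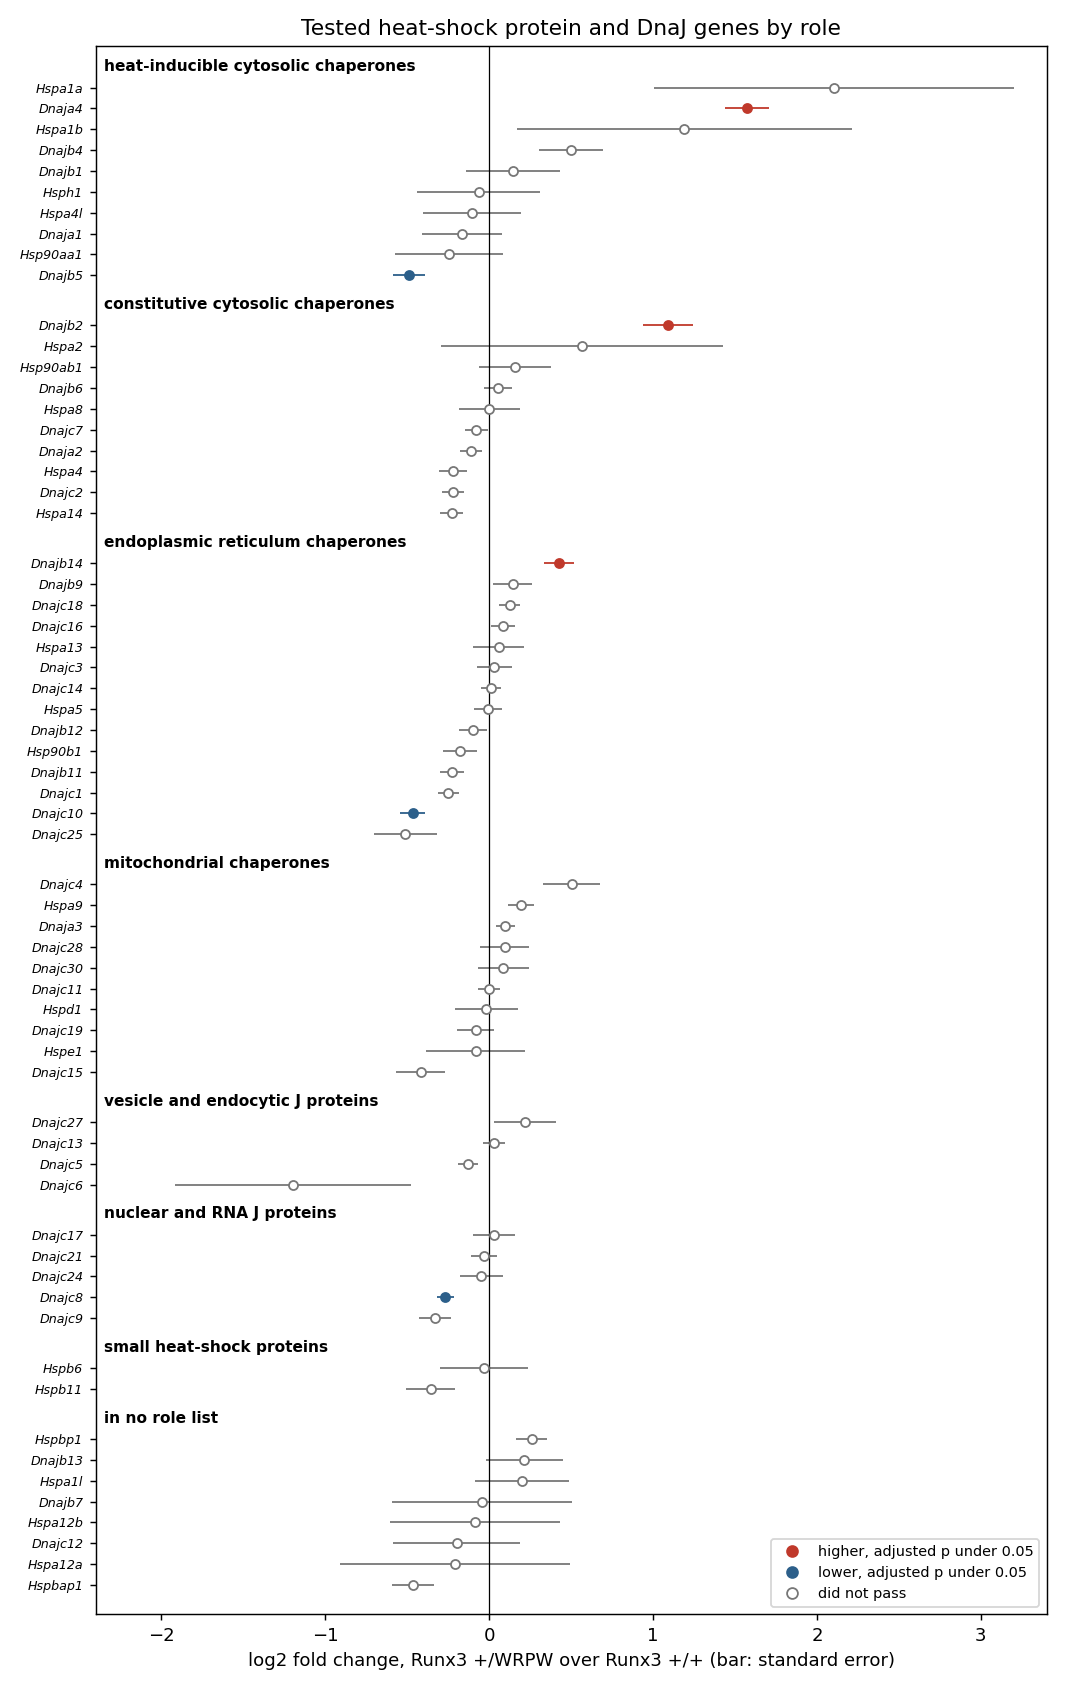
Log2 fold change of Runx3 +/WRPW over Runx3 +/+ (horizontal axis) for each of the 63 tested genes, grouped by role. Points are edgeR estimates, bars are 1 standard error, and filled points passed an adjusted p of 0.05: Dnaja4, Dnajb2 and Dnajb14 to the right of 0 and Dnajb5, Dnajc10 and Dnajc8 to the left.

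The heat-inducible cytosolic chaperones did not move together by genotype. Of 10 tested, 1 rose (Dnaja4), 1 fell (Dnajb5) and 8 did not pass, with a median log2 fold change of 0.04. The largest difference of all the tested J proteins was in Dnaja4 (chromosome 9, 54698873 to 54716315, GRCm38), which encodes a cytosolic J protein of the same class as Dnaja1. Its level was 67.9, 71.2 and 87.8 CPM in Runx3 +/WRPW, against 24.0 and 26.8 CPM in Runx3 +/+. All 3 Runx3 +/WRPW libraries were above both Runx3 +/+ libraries, the lowest of them at more than 2 times the higher Runx3 +/+ library. The means were 75.7 ± 10.7 CPM (SD, n = 3) in Runx3 +/WRPW and 25.4 ± 1.99 CPM (SD, n = 2) in Runx3 +/+, a log2 fold change of 1.57 ± 0.13 (SE), or 2.97-fold higher (edgeR adjusted p = 0.00215). The end of Dnaja4 overlaps Wdr61 on the opposite strand, over 44.1% of the exon bases of Dnaja4, and whether counting used strand is not given. Wdr61 was at 31.7 ± 0.803 CPM in Runx3 +/WRPW and 31.7 ± 0.451 CPM in Runx3 +/+ (log2 fold change 0.00, adjusted p = 0.987). Without Runx3 +/+ library 1 the log2 fold change of Dnaja4 was 1.46 (adjusted p = 0.0518) and without library 2 it was 1.65 (adjusted p = 0.0521); over all alternatives the adjusted p ran from 2.71e-21 with DESeq2 to 0.0521.

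Dnajb5, a J protein induced by heat in cultured cells, went the other way. It stood at 21.2, 21.4 and 21.4 CPM in Runx3 +/WRPW and at 27.5 and 32.3 CPM in Runx3 +/+ (chromosome 4, 42949814 to 42959425). The Runx3 +/WRPW libraries were almost level and all below both Runx3 +/+ libraries, a log2 fold change of -0.49 ± 0.10 or 1.4-fold lower (adjusted p = 0.0281). The call was lost without any 1 of 4 libraries, at adjusted p = 0.0981, 0.0610 and 0.0784 without Runx3 +/WRPW libraries 1, 2 and 3 and 0.146 without Runx3 +/+ library 2, and at 0.121 with the replicate number as a block, while the log2 fold change stayed between -0.64 and -0.38. Over all alternatives the adjusted p ran from 0.0033 to 0.146.

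Hsph1, Hsp90aa1, Dnaja1, Hspa4l and Dnajb1, of the heat-inducible list, varied more within a genotype than between the genotypes. Hsph1, the inducible Hsp110, was at 353, 333 and 575 CPM in Runx3 +/WRPW and at 274 and 605 CPM in Runx3 +/+ (log2 fold change -0.07 ± 0.38, adjusted p = 0.931). Hsp90aa1, the inducible cytosolic Hsp90, was at 165, 159 and 279 CPM in Runx3 +/WRPW and at 170 and 306 CPM in Runx3 +/+ (log2 fold change -0.24 ± 0.33, adjusted p = 0.678). In both genes library 3 of Runx3 +/WRPW and library 2 of Runx3 +/+ were high and the other 3 libraries low, so the genotypes overlapped. Dnaja1, a general J partner of Hsp70, had 158, 165 and 224 CPM in Runx3 +/WRPW and 154 and 256 CPM in Runx3 +/+, with the same libraries high (adjusted p = 0.703). Hspa4l, another Hsp110 protein, had 91.2, 71.8 and 123 CPM in Runx3 +/WRPW and 74.1 and 131 CPM in Runx3 +/+ (adjusted p = 0.855). Dnajb1, the heat-induced J partner that Hsp70 uses to take apart aggregates, had 140, 211 and 219 CPM in Runx3 +/WRPW and 123 and 220 CPM in Runx3 +/+; here Runx3 +/WRPW library 2 was high as well (adjusted p = 0.789). Dnajb4, a close relative of Dnajb1, had 25.005, 31.8 and 34.5 CPM in Runx3 +/WRPW and 17.9 and 24.98 CPM in Runx3 +/+ (log2 fold change 0.50 ± 0.19, adjusted p = 0.150). Its genotypes did not overlap, though the nearest libraries were almost level.

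The classic stress-induced Hsp70 genes were close to silent. Hspa1a had 33, 43 and 60 counts in Runx3 +/WRPW libraries 1, 2 and 3, against 1 and 22 counts in Runx3 +/+ libraries 1 and 2, which is 0.754, 2.68 and 2.76 CPM against 0.0467 and 0.879 CPM. Hspa1b had 54, 80 and 123 counts (1.23, 4.98 and 5.66 CPM) in Runx3 +/WRPW, against 6 and 78 counts (0.280 and 3.12 CPM) in Runx3 +/+. Runx3 +/+ library 1 was lowest for both genes, and Runx3 +/+ library 2 lay above Runx3 +/WRPW library 1, so the genotypes overlapped. The log2 fold changes of 2.10 ± 1.10 (adjusted p = 0.263) for Hspa1a and 1.19 ± 1.02 (adjusted p = 0.496) for Hspa1b did not pass. The 2 genes are near-identical copies: of the 50-base windows of their transcripts, 66.3% in Hspa1a and 62.3% in Hspa1b also occur in transcripts of other genes, so reads may have been split between them or lost. Hspb1, a small heat-shock protein induced by heat, had 10, 5 and 5 counts in Runx3 +/WRPW and 2 and 2 counts in Runx3 +/+, too few to be tested.

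**Figure D2:**
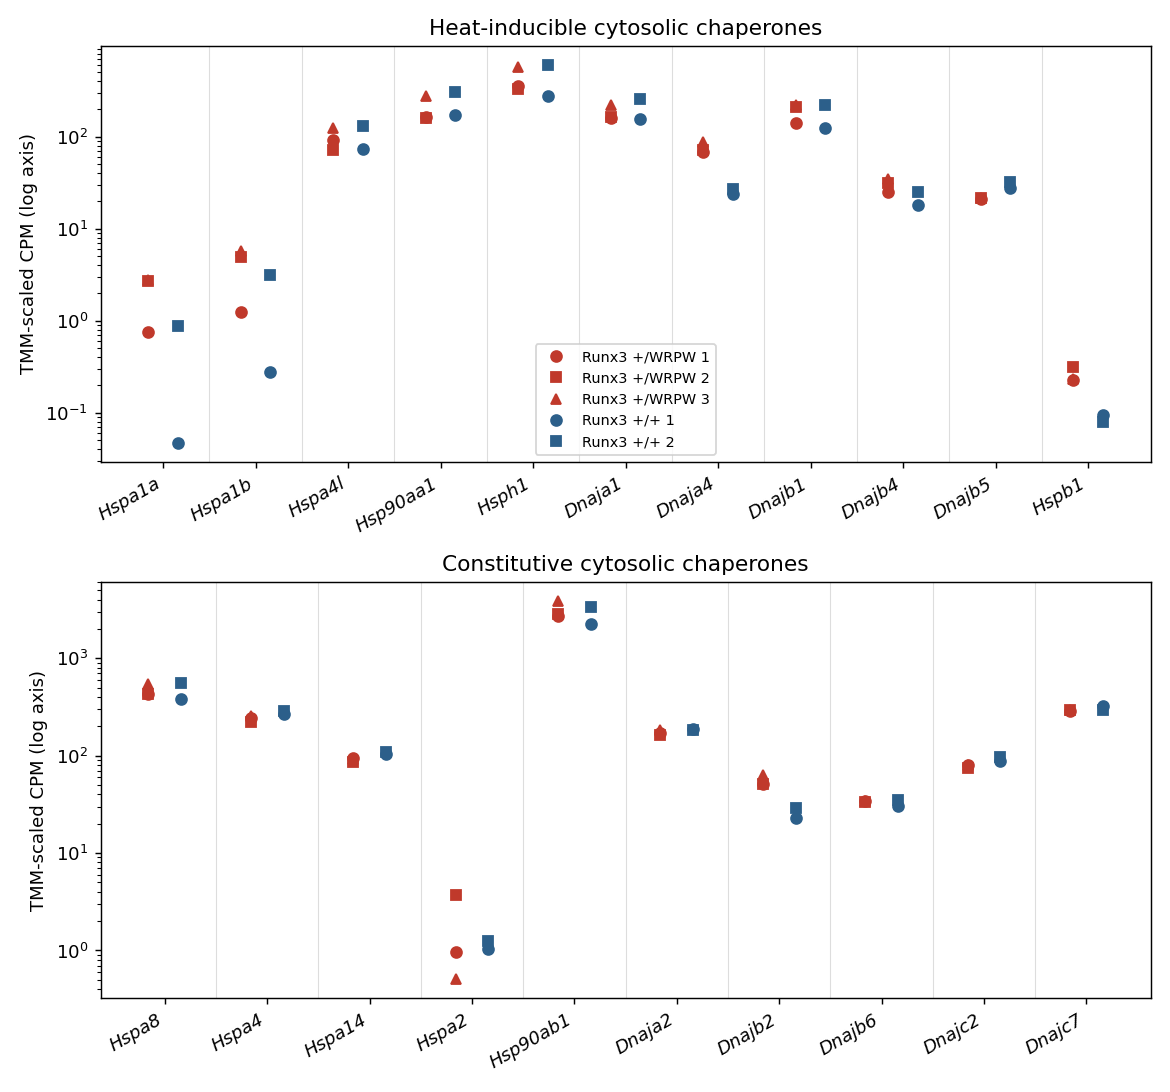
Level of each heat-inducible (upper panel) and constitutive (lower panel) cytosolic chaperone in each library, in TMM-scaled CPM on a log axis, with Runx3 +/WRPW libraries in red and Runx3 +/+ libraries in blue. Dnaja4 and Dnajb2 are the genes whose genotypes lie farthest apart without overlap among those above 20 CPM, while Hsph1 and Hsp90aa1 spread as widely within each genotype as between them.

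Hsf1 is known to read heat-shock elements in promoters. Most searched genes of the heat-inducible list hold a short form of this element, and only Hsph1 of that list holds a longer form. A few windows are shown to set the called gene Dnaja4 beside genes that did not pass. The window searched was 250 bases before to 50 bases after each RefSeq start (GRCm38.p6), which could be matched for 60 of the 74 genes. Hsp90aa1 of the heat-inducible list and Hspa8, Hsp90ab1 and Dnajc2 of the constitutive list had no window and were not searched. The short heat-shock element, GAA and TTC in either order with 2 bases between them, was found, on either strand, in 7 of 10 heat-inducible genes with a window (Dnaja1, Dnaja4, Dnajb4, Hspa1a, Hspa1b, Hspb1, Hsph1) and in 1 of 7 constitutive genes (Dnajb6), where 17.0% of 27025 genes have it. The longer element, GAA, TTC and GAA in turn with 2 bases between neighbours, contains the short one and was found in Hsph1, Dnajb6, Hspd1 and Hspe1, against 0.662% of all genes. Each sequence is given 5′ to 3′ along the gene, from chr17:34972217-34972306 (minus strand) for Hspa1a, chr17:34959299-34959388 (minus strand) for Hspa1b, chr9:54699439-54699528 (plus strand) for Dnaja4, chr5:29735808-29735897 (plus strand) for Dnajb6 and chr5:149636275-149636304 (minus strand) for the site of Hsph1, which lies just after its start. Capitals mark the element.
Hspa1a: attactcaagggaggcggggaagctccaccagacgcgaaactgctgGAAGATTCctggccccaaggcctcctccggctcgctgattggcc
Hspa1b: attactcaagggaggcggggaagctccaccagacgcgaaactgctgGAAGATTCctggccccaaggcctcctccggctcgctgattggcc
Dnaja4: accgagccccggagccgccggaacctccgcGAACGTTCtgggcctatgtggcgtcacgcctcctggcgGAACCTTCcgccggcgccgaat
Dnajb6: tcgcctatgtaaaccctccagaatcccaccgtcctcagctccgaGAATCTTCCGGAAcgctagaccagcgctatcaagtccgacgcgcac
Hsph1: cagaTTCTGGAAAGTTCtcctcagtaggct
The windows of Hspa1a and Hspa1b were identical over the 90 bases shown and over 247 of the 250 bases before the start (98.8%). Dnaja4 has 2 short elements in the stretch shown. A gene with several starts was counted if any of its windows matched, and in Dnaja1, Dnaja4 and Dnajb4 not every window did. Of the 6 called genes, the windows of Dnaja4 and of the ER gene Dnajc10, which fell, hold the short element, and those of Dnajb2, Dnajb14, Dnajb5 and Dnajc8 do not. A match is a description of the letters and not evidence of binding.

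The constitutive cytosolic chaperones were the steadier list. Of 10 tested, 1 rose (Dnajb2) and 9 did not pass, with a median log2 fold change of -0.04. Dnajb2, a J protein that holds ubiquitinated clients for the proteasome and is best known from neurons, was at 51.7, 51.0 and 63.9 CPM in Runx3 +/WRPW and at 22.7 and 29.3 CPM in Runx3 +/+ (chromosome 1, 75236406 to 75245692). The lowest Runx3 +/WRPW library lay well above the highest Runx3 +/+ library, and no exon base of Dnajb2 overlaps another gene. The means were 55.6 ± 7.27 CPM (SD, n = 3) in Runx3 +/WRPW and 26 ± 4.61 CPM (SD, n = 2) in Runx3 +/+, a log2 fold change of 1.09 ± 0.15 or 2.13-fold higher (adjusted p = 0.00911). Without Runx3 +/+ library 1 the log2 fold change was 0.89 (adjusted p = 0.110) and without library 2 it was 1.28 (adjusted p = 0.0710), and over all alternatives the adjusted p ran from 2.96e-08 to 0.110.

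The most abundant genes of the constitutive list showed a weaker form of the library pattern of Hsph1. Hsp90ab1, the constitutive cytosolic Hsp90, was at 2723, 2838 and 3866 CPM in Runx3 +/WRPW and at 2248 and 3384 CPM in Runx3 +/+ (log2 fold change 0.16 ± 0.22, adjusted p = 0.687). Hspa8, the constitutive Hsp70 of the cytosol, was at 431, 433 and 540 CPM in Runx3 +/WRPW and at 377 and 559 CPM in Runx3 +/+ (log2 fold change 0.00 ± 0.19, adjusted p = 0.999). Both were highest in the libraries in which Hsph1 was high. Hspa4, the constitutive Hsp110, was at 242, 219 and 255 CPM in Runx3 +/WRPW and at 270 and 287 CPM in Runx3 +/+ (log2 fold change -0.22 ± 0.08, adjusted p = 0.140). Hspa14 and Dnajc2 encode an Hsp70 and a J protein that sit on the ribosome, and their levels were similarly shifted without passing. Hspa14 had 95.5, 85.7 and 92.4 CPM in Runx3 +/WRPW and 104 and 110 CPM in Runx3 +/+ (adjusted p = 0.0833). Dnajc2 had 79.3, 75.4 and 80.4 CPM in Runx3 +/WRPW and 87.2 and 95.7 CPM in Runx3 +/+ (adjusted p = 0.0841). In these 3 genes every Runx3 +/WRPW library lay below both Runx3 +/+ libraries.

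The other constitutive genes, Hspa2 excepted, varied little between libraries. Dnaja2, the constitutive counterpart of Dnaja1, had 171, 163 and 182 CPM in Runx3 +/WRPW and 187 and 184 CPM in Runx3 +/+ (adjusted p = 0.331). Dnajc7, which binds Hsp70 and Hsp90 through repeats of its own, had 289, 294 and 292 CPM in Runx3 +/WRPW and 324 and 292 CPM in Runx3 +/+ (adjusted p = 0.501). Dnajb6, which keeps aggregation-prone proteins soluble, had 34.0, 33.4 and 34.5 CPM in Runx3 +/WRPW and 30.5 and 34.9 CPM in Runx3 +/+ (adjusted p = 0.723). Its promoter window holds the longer heat-shock element shown above. Runx3 +/+ library 2 was less than 25% above library 1 for Dnajb6 and 2.2 times as high for Hsph1. Whether the element bears on these levels was not tested. Hspa2, an Hsp70 best known from the testis, had 42, 59 and 11 counts in Runx3 +/WRPW and 22 and 31 counts in Runx3 +/+; the highest level, 3.67 CPM, was in the library that stood apart, Runx3 +/WRPW library 2.

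Heat-inducible genes were set against their constitutive counterparts as ratios of counts within each library, which do not depend on library size. Hsp90aa1 over Hsp90ab1 was 0.0608, 0.0559 and 0.0723 in Runx3 +/WRPW and 0.0758 and 0.0905 in Runx3 +/+. It was the only pair whose genotypes did not overlap, with a mean log2 ratio of -4.0 ± 0.19 (SD, n = 3) in Runx3 +/WRPW and -3.59 ± 0.18 (SD, n = 2) in Runx3 +/+, a difference of -0.40 or a 1.32-fold lower ratio. The exact two-sided permutation test gave p = 0.2, adjusted to 0.6 over the 4 pairs; with 3 against 2 libraries no p below 0.1 can be reached. Reads of Hsp90aa1 may be lost to copies, since 47.5% of its 50-base windows also occur in transcripts of other genes. Hspa1a plus Hspa1b over Hspa8 was 0.00461, 0.0177 and 0.0156 in Runx3 +/WRPW and 0.000867 and 0.00715 in Runx3 +/+ (log2 difference 2.12, exact permutation p = 0.3, adjusted 0.6). Hsph1 over Hspa4 was 1.46, 1.52 and 2.26 in Runx3 +/WRPW and 1.02 and 2.11 in Runx3 +/+ (log2 difference 0.22, exact permutation p = 0.7, adjusted 0.933). Dnaja1 over Dnaja2 was 0.927, 1.01 and 1.23 in Runx3 +/WRPW and 0.823 and 1.39 in Runx3 +/+ (log2 difference -0.02, exact permutation p = 1, adjusted 1). The last 3 ratios overlapped between the genotypes, and the sign of the difference changed when 1 library was left out for Hsph1 over Hspa4 (-0.30 without Runx3 +/+ library 1) and for Dnaja1 over Dnaja2 (0.07 and 0.001 when Runx3 +/WRPW library 1 or 2 was left out, 0.35 when Runx3 +/+ library 2 was).

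**Figure D3:**
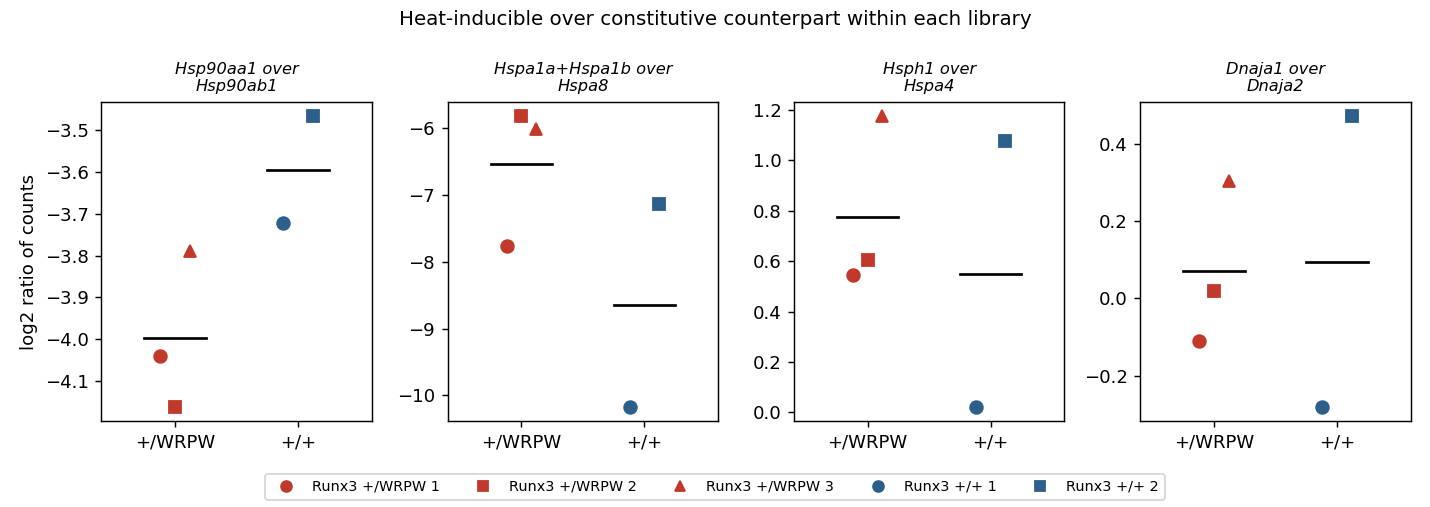
Log2 ratio of the counts of a heat-inducible gene over its constitutive counterpart in each library, with Runx3 +/WRPW on the left and Runx3 +/+ on the right of each panel and horizontal lines at the genotype means. Each panel has its own vertical axis; the genotypes are apart only for Hsp90aa1 over Hsp90ab1, by -0.40 between the means.

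The difference between the inducible and the constitutive list was in how far libraries of 1 genotype lay apart. The SD within genotypes of log2(CPM + 0.5) had a median of 0.45 over the 10 tested heat-inducible genes, 0.089 over the 10 constitutive genes and 0.131 over all genes tested. Within Runx3 +/WRPW, library 3 was above library 1 by 1.63 times for Hsph1 and 1.69 times for Hsp90aa1, and above library 2 by 1.73 and 1.76 times. Within Runx3 +/+, library 2 was at least 1.5 times as high as library 1 in 7 of the 10 heat-inducible genes and in 1 of the 10 constitutive genes, Hsp90ab1, where 5.22% of all genes tested were. This ratio was 2.2 for Hsph1, 1.79 for Hsp90aa1, 1.78 for Dnajb1, 1.77 for Hspa4l and 1.65 for Dnaja1. Dnajb5, by contrast, differed by less than 25% in each of these library pairs.

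**Figure D4:**
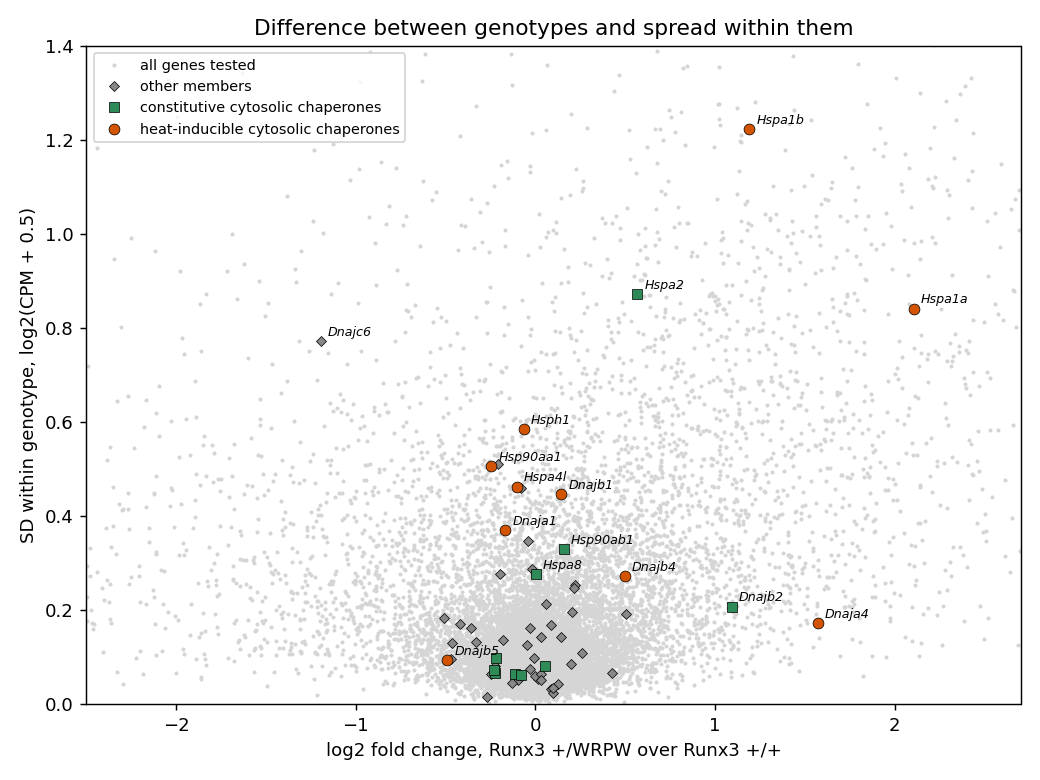
SD within genotypes of log2(CPM + 0.5) (vertical axis) against the log2 fold change of Runx3 +/WRPW over Runx3 +/+ (horizontal axis), for all genes tested (grey; 376 lie outside the plotted range) and for heat-inducible, constitutive and other members. Hsph1, Hsp90aa1, Hspa4l, Dnajb1 and Dnaja1 sit near 0 with SDs above most constitutive genes, and Dnaja4 and Dnajb2 lie to the right with SDs under 0.25.

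Across all 13666 genes tested, 89 (0.651%) were higher by at least 25% in all 3 of these library pairs. Both the pairs and the threshold were chosen after the values were seen, those of Hsph1 and Hsp90aa1 among them. The counts of members below are therefore a description and not a test. They included 7 of the 63 members (11.1%): Hsph1, Hsp90aa1, Hspa4l and Dnaja1 of the heat-inducible list, Hsp90ab1 of the constitutive list, and the mitochondrial pair Hspd1 and Hspe1. Outside the members they included Cacybp, Ahsa2, Ahsa1, Stip1, Bag3 and Chordc1, which are 6 of 11 tested genes of a list of other heat-inducible genes. Stip1, which hands clients from Hsp70 to Hsp90, was at 361, 349 and 489 CPM in Runx3 +/WRPW and at 299 and 487 CPM in Runx3 +/+ (adjusted p = 0.959). Ahsa1, an activator of Hsp90, was at 183, 185 and 233 CPM in Runx3 +/WRPW and at 154 and 236 CPM in Runx3 +/+ (adjusted p = 0.923). Of 14 tested ER chaperones and of 7 tested immediate-early genes known to respond to cell handling, 0 met the threshold, and at a background of 0.651% lists of this size would seldom hold a gene that does. Jun, alone among the 7, went the same way in all 3 library pairs. It was at 1.23 and 1.16 times in Runx3 +/WRPW library 3 over libraries 1 and 2 and at 1.61 times in Runx3 +/+ library 2 over library 1. Fos, Fosb, Junb, Egr1 and Ier2 were lower in Runx3 +/WRPW library 3 than in library 1, at 0.815 to 0.953 times. Dusp1 was lower in Runx3 +/WRPW library 3 than in library 2, at 0.912 times. Of the 7, Junb was called higher (298, 271 and 277 CPM in Runx3 +/WRPW, 157 and 162 CPM in Runx3 +/+) and Egr1 lower (156, 113 and 127 CPM in Runx3 +/WRPW, 243 and 274 CPM in Runx3 +/+). What sets these libraries apart was not tested.

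**Figure D5:**
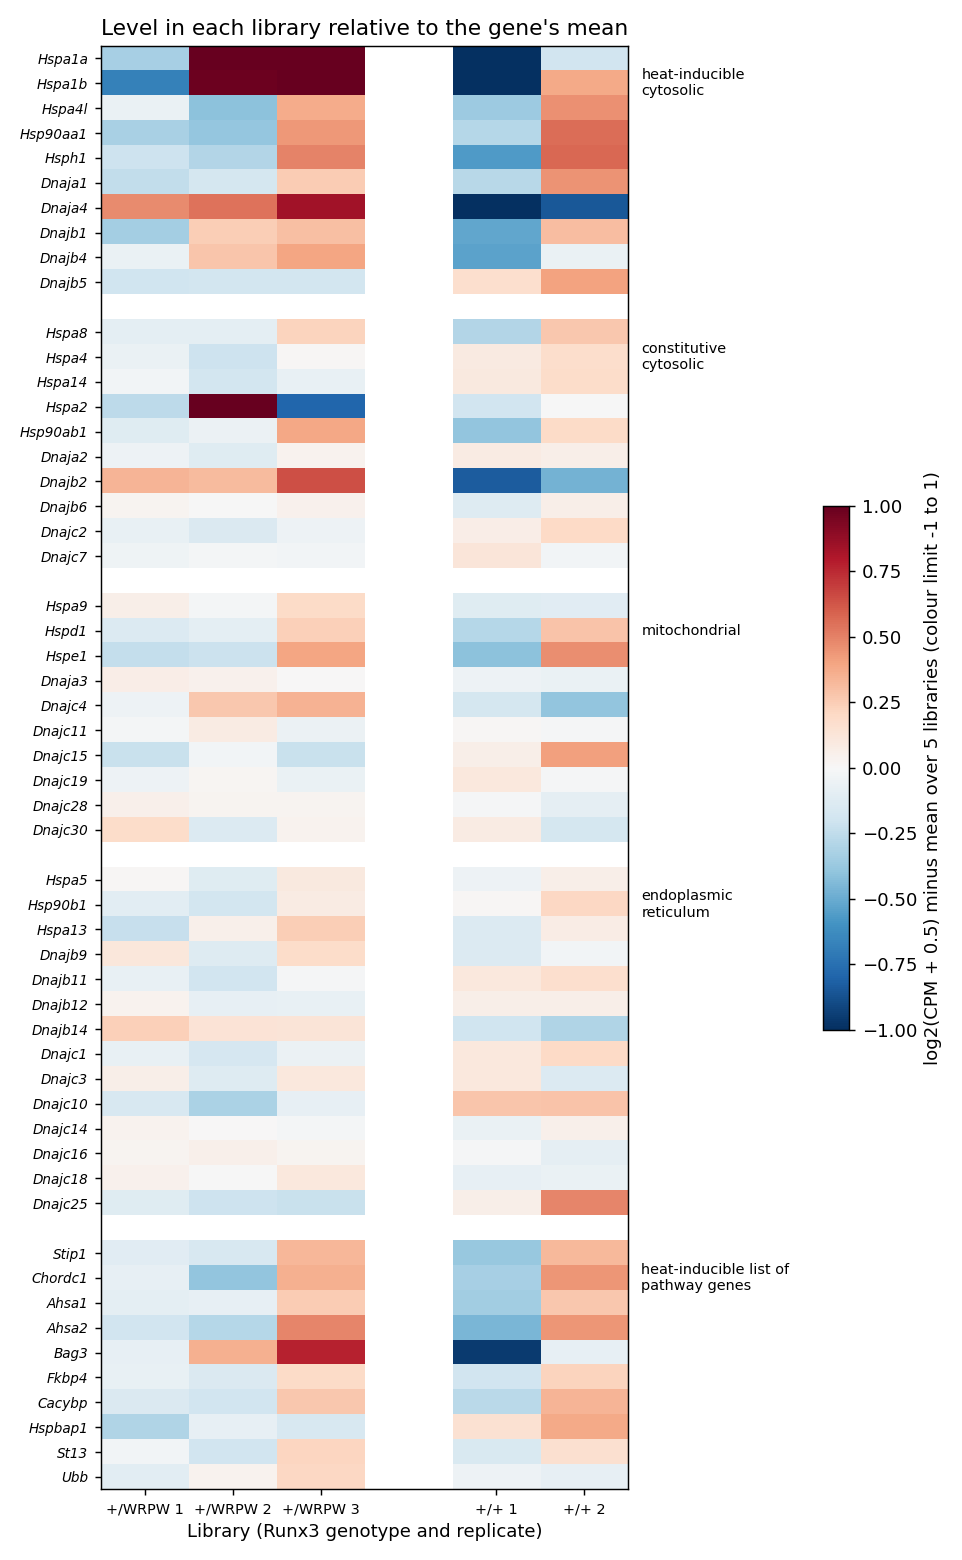
Level in each library relative to the gene's mean over the 5 libraries, as a difference of log2(CPM + 0.5) with colours limited at -1 and 1, for tested genes of the cytosolic, mitochondrial and ER lists and of a list of other heat-inducible genes, 1 of them left out. Hsph1, Hsp90aa1, Hspd1, Hspe1, Stip1 and Chordc1 are red in Runx3 +/WRPW library 3 and Runx3 +/+ library 2 and blue in the others, Dnaja4 and Dnajb2 divide by genotype, and most ER genes stay near white.

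Of the mitochondrial chaperones 0 of 10 tested were called by edgeR, by DESeq2 or by limma-voom, and 3 had an unadjusted p under 0.05, with a median log2 fold change of 0.04. Hspa9, the Hsp70 that pulls proteins into the matrix, was the highest of them in CPM, at 210, 199 and 230 CPM in Runx3 +/WRPW and at 186 and 186 CPM in Runx3 +/+ (log2 fold change 0.20 ± 0.08, adjusted p = 0.161); its genotypes did not overlap. Hspd1, the chaperonin of the matrix, was at 120, 123 and 156 CPM in Runx3 +/WRPW and at 108 and 161 CPM in Runx3 +/+ (adjusted p = 0.965). Hspe1, its lid, was at 46.8, 47.6 and 72.7 CPM in Runx3 +/WRPW and at 41.4 and 76.2 CPM in Runx3 +/+ (adjusted p = 0.890). Hspd1 and Hspe1 are divergent neighbours that share a promoter, and both were high in the libraries in which Hsph1 was. Of the 10 mitochondrial genes 7 had a window, while Hspa9, Dnajc11 and Dnajc30 had none and were not searched. Among those searched, the promoter of Hspd1 and Hspe1 is the only one with the longer element, and it is shown for that reason. The stretch lies on the plus strand along Hspe1 at chr1:55088028-55088117. Capitals mark a run of overlapping short elements that contains the longer element.
Hspe1: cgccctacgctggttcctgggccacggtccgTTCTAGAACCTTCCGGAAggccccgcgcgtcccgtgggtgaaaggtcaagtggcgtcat
The J proteins of the list did not follow this pattern: Dnaja3, a matrix J protein, was at 49.5, 48.9 and 47.5 CPM in Runx3 +/WRPW and at 45.6 and 45.2 CPM in Runx3 +/+ (adjusted p = 0.334). The widest fold change of the list was in Dnajc4, at 9.44, 11.9 and 12.6 CPM in Runx3 +/WRPW and at 8.59 and 7.31 CPM in Runx3 +/+ (log2 fold change 0.50 ± 0.17, adjusted p = 0.112). Of the 50-base windows of the transcripts, 42.1% for Hspd1 and 22.8% for Hspe1 also occur in transcripts of other genes.

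Among the ER chaperones 1 of 14 rose (Dnajb14), 1 fell (Dnajc10) and 12 did not pass, with a median log2 fold change of 0.00. Dnajc10, a J protein with thioredoxin domains that reduces disulfides of proteins bound for degradation, was at 98.5, 88.5 and 104 CPM in Runx3 +/WRPW and at 134 and 134 CPM in Runx3 +/+ (chromosome 2, 80315466 to 80354043). Every Runx3 +/WRPW library lay below both Runx3 +/+ libraries, with means of 97.0 ± 7.89 CPM (SD, n = 3) in Runx3 +/WRPW and 134 ± 0.142 CPM (SD, n = 2) in Runx3 +/+, a log2 fold change of -0.47 ± 0.08 or 1.38-fold lower (adjusted p = 0.0160). Without Runx3 +/WRPW library 1 the adjusted p was 0.0610, and without Runx3 +/+ libraries 1 and 2 it was 0.151 and 0.200, with log2 fold changes of -0.49, -0.50 and -0.47; over all alternatives it ran from 4.35e-05 to 0.200. Dnajb14, a J protein of the ER membrane that faces the cytosol, was at 29.2, 27.2 and 27.0 CPM in Runx3 +/WRPW and at 21.5 and 19.9 CPM in Runx3 +/+ (chromosome 3, 137867675 to 137916557). The genotypes did not overlap, and the log2 fold change was 0.43 ± 0.09 or 1.34-fold higher (adjusted p = 0.0331). This call was lost without any 1 of the 5 libraries, at adjusted p = 0.133, 0.0661 and 0.0768 without Runx3 +/WRPW libraries 1, 2 and 3 and 0.124 and 0.228 without Runx3 +/+ libraries 1 and 2, at 0.123 with the replicate block and at 0.0611 without the filter on low counts; over all alternatives it ran from 0.00852 to 0.228. Dnajb12, the closest relative of Dnajb14 in the same membrane, was at 25.9, 24.0 and 24.1 CPM in Runx3 +/WRPW and at 26.5 and 26.4 CPM in Runx3 +/+ (log2 fold change -0.10 ± 0.09, adjusted p = 0.499).

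The main Hsp70 and Hsp90 of the ER, which the unfolded protein response is known to raise, did not pass. Hspa5 (BiP), the Hsp70 of the ER, was at 559, 510 and 592 CPM in Runx3 +/WRPW and at 536 and 576 CPM in Runx3 +/+ (log2 fold change -0.01 ± 0.08, adjusted p = 0.976). Hsp90b1 (Grp94), the Hsp90 of the ER, was at 512, 485 and 584 CPM in Runx3 +/WRPW and at 556 and 637 CPM in Runx3 +/+ (adjusted p = 0.315). Dnajc3, a J partner of BiP, was at 238, 208 and 246 CPM in Runx3 +/WRPW and at 245 and 207 CPM in Runx3 +/+ (adjusted p = 0.887). These 3 are the only members of 12 ER genes with a window whose promoter holds the ER stress element, CCAAT and CCACG with 9 bases between them, on either strand, against 0.137% of all genes, and their windows are shown for that reason. They lie at chr2:34771980-34772069 (plus strand) for Hspa5, chr10:86705505-86705594 (minus strand) for Hsp90b1, where the element reads on the other strand, and chr14:118937782-118937871 (plus strand) for Dnajc3. Capitals mark the element.
Hspa5: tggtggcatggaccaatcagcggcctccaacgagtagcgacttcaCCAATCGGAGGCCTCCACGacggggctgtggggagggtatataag
Hsp90b1: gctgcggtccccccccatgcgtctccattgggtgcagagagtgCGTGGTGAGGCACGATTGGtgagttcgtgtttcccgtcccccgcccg
Dnajc3: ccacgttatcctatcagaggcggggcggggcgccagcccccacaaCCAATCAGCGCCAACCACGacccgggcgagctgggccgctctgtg
Dnajb9 and Dnajb11, J proteins of the ER lumen that bind BiP or its clients, also did not pass. Dnajb9 was at 28.5, 24.0 and 29.9 CPM in Runx3 +/WRPW and at 23.9 and 25.9 CPM in Runx3 +/+ (adjusted p = 0.482). Dnajb11 was at 118, 109 and 124 CPM in Runx3 +/WRPW and at 134 and 140 CPM in Runx3 +/+ (log2 fold change -0.23 ± 0.07, adjusted p = 0.0927), and its genotypes did not overlap. Dnajc1, an ER membrane J protein that also binds ribosomes, was at 84.7, 79.0 and 85.7 CPM in Runx3 +/WRPW and at 95.6 and 102 CPM in Runx3 +/+ (adjusted p = 0.0594 with edgeR; DESeq2 called it). ER chaperones were also steady between libraries, with a median SD within genotypes of 0.089 and none with Runx3 +/+ library 2 at 1.5 times library 1.

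Of the nuclear and RNA J proteins, 1 of 5 fell (Dnajc8) and 4 did not pass. Dnajc8, found with the splicing machinery, was at 106, 108 and 106 CPM in Runx3 +/WRPW and at 128 and 128 CPM in Runx3 +/+ (chromosome 4, 132535550 to 132553742). It had the smallest change of the 6 called genes and the tightest libraries, with means of 107 ± 1.44 CPM (SD, n = 3) in Runx3 +/WRPW and 128 ± 0.182 CPM (SD, n = 2) in Runx3 +/+, a log2 fold change of -0.27 ± 0.05 or 1.21-fold lower (adjusted p = 0.0235). The adjusted p was 0.103 and 0.0719 without Runx3 +/WRPW libraries 1 and 3, 0.117 and 0.179 without Runx3 +/+ libraries 1 and 2, 0.152 with the replicate block and 0.0750 without the filter on low counts; over all alternatives it ran from 0.000299 to 0.179. Dnajc9, a J protein that is also a histone chaperone, was at 106, 90.9 and 111 CPM in Runx3 +/WRPW and at 134 and 124 CPM in Runx3 +/+ (log2 fold change -0.33 ± 0.10, adjusted p = 0.0768 with edgeR; DESeq2 called it). Dividing-cell markers moved the same way, as given above (sums of 69.3 to 76.0 CPM in Runx3 +/WRPW, 501 and 540 CPM in Runx3 +/+), and their part in the values of Dnajc8 and Dnajc9 was not tested.

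The 4 tested J proteins of vesicles did not pass with edgeR, DESeq2 or limma-voom, and none had an unadjusted p under 0.05. Dnajc5 (cysteine string protein), which guards exocytosis proteins on vesicles, was at 290, 290 and 301 CPM in Runx3 +/WRPW and at 311 and 332 CPM in Runx3 +/+ (adjusted p = 0.238). Dnajc13, an endosomal J protein, was at 158, 146 and 162 CPM in Runx3 +/WRPW and at 151 and 154 CPM in Runx3 +/+ (adjusted p = 0.819). Dnajc6 (auxilin), which strips clathrin from vesicles in neurons, was at 0.823, 3.05 and 0.598 CPM in Runx3 +/WRPW and at 2.66 and 4.0 CPM in Runx3 +/+ (adjusted p = 0.330). Only Runx3 +/WRPW library 2, which stood apart, overlapped Runx3 +/+, and with that library left out Dnajc6 was called lower. Of the small heat-shock proteins only Hspb11 and Hspb6 were tested, neither with an unadjusted p under 0.05 and neither called by DESeq2 or limma-voom. Hspb11, a protein of intraflagellar transport that carries this name, was at 8.46, 10.4 and 10.3 CPM in Runx3 +/WRPW and at 11.4 and 13.4 CPM in Runx3 +/+ (adjusted p = 0.174). Hspb6 was at 2.58, 3.49 and 3.31 CPM in Runx3 +/WRPW and at 3.13 and 3.24 CPM in Runx3 +/+ (adjusted p = 0.954).

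In no role list, 8 genes were tested and none passed with edgeR. Hspbp1, a nucleotide exchange factor that works on Hsp70, was at 49.8, 45.6 and 44.8 CPM in Runx3 +/WRPW and at 36.2 and 42.0 CPM in Runx3 +/+ (adjusted p = 0.127). Hspbap1, which binds Hspb1, was at 12, 14 and 13.2 CPM in Runx3 +/WRPW and at 16.5 and 19.5 CPM in Runx3 +/+ (log2 fold change -0.46 ± 0.13, adjusted p = 0.0630); DESeq2 and limma-voom called it lower. Of the 8, 2 had an unadjusted p under 0.05. Hspa1l, the testis gene next to Hspa1a, had 112, 59 and 73 counts in Runx3 +/WRPW and 62 and 66 counts in Runx3 +/+ (adjusted p = 0.696), and 71.9% of its exon bases overlap an antisense gene. The 11 untested members were Hspb1, Hspb2, Hspb3, Hspb7, Hspb8, Hspb9, Dnajb3, Dnajb8, Dnajc5b, Dnajc5g and Dnajc22, with at most 15 counts in any library. Hspb3 and Dnajb8 had no count in any library, where 3 counts correspond to 0.0686 to 0.187 CPM. Dnajc5b, Dnajc5g, Hspb7 and Dnajc22 had counts in Runx3 +/WRPW library 2 only.

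Per length, as mean CPM per kilobase of exon over the 5 libraries, the members were led by Hsp90ab1 at 1004. The ER pair Hsp90b1 at 138 and Hspa5 at 131 followed, and then Hspa8 at 109. Dnajc7 at 61.4, Dnaja2 at 59.6, Hsph1 at 58.9, Dnajb1 at 57, Hsp90aa1 at 54.9 and Hspd1 at 50.6 CPM per kilobase came next and cannot be ranked against each other given the spread of the inducible genes. Among the called genes the mean level was 45.1 CPM per kilobase for Dnajc8, 22.4 for Dnajc10, 15.5 for Dnaja4, 10.3 for Dnajb2, 4.17 for Dnajb5 and 1.59 for Dnajb14. The inducible Hsp70 genes stood at 0.480 for Hspa1a and 1.09 for Hspa1b. This order holds for the members only. Outside them, Calr at 203 and Stip1 at 188 CPM per kilobase, for example, lay above Hsp90b1. Copies elsewhere in the genome could lower some of these levels, since 39.4% of the 50-base windows of Hspa8 also occur in transcripts of other genes.

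With edgeR, the only called genes among the regulators and partners of these chaperones were in the ER list. Of 4 tested genes of the heat-shock factor list none was called, and Hsf1, the main factor of the heat-shock response, was at 109, 115 and 108 CPM in Runx3 +/WRPW and at 97.9 and 104 CPM in Runx3 +/+ (adjusted p = 0.236). None was called of 11 tested other heat-inducible genes, 18 cochaperones of Hsp70 and Hsp90, 14 subunits of the cytosolic chaperonin and prefoldin, and 9 mitochondrial partners; at an unadjusted p under 0.05 the counts in these 5 lists were 2, 1, 3, 1 and 2, beside 4077 of all 13666 genes tested. DESeq2 and limma-voom each called 1 gene in these lists, Hspbap1, which the prefixes also make a member. Of 17 ER partners and genes of the unfolded protein response, 1 rose, 2 fell and 14 did not pass. At an unadjusted p under 0.05 there were 9 of the 17, a larger share than the 4077 of all 13666 genes. In 4 of the 17 every Runx3 +/WRPW library lay above both Runx3 +/+ libraries and in 7 every one lay below. Over all genes tested these shares were 24.7% and 23.8%. Eif2ak3 (Perk), the ER stress kinase, was at 53.7, 57.2 and 60.1 CPM in Runx3 +/WRPW and at 71.6 and 80.6 CPM in Runx3 +/+ (log2 fold change -0.42 ± 0.08, adjusted p = 0.0251). Manf, a secreted ER stress protein that binds BiP, was at 66.4, 59.4 and 64.3 CPM in Runx3 +/WRPW and at 81.1 and 102 CPM in Runx3 +/+ (log2 fold change -0.53 ± 0.11, adjusted p = 0.0301). Herpud1, an ER membrane protein of ER-associated degradation, was at 65.1, 65.9 and 66.8 CPM in Runx3 +/WRPW and at 55.8 and 49.3 CPM in Runx3 +/+ (log2 fold change 0.33 ± 0.07, adjusted p = 0.0374). All 3 calls were lost without any 1 of the 5 libraries, at an adjusted p of 0.0512 to 0.221 for Eif2ak3, 0.0522 to 0.235 for Manf and 0.0779 to 0.274 for Herpud1.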

How the data were processed

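Each library came with 1 deposited file of raw gene counts, which the authors had not normalized. The submitters' processing notes name cutadapt 4.0, HISAT2 2.2.1, featureCounts 2.0.8, edgeR 3.36.0 and the mm10 build, but no settings. Strand use and the handling of multi-mapped reads are therefore unknown, and overlapping genes and near-identical copies are uncertain. Libraries were grouped by their genotype label. In its column header, the file of Runx3 +/+ library 2 carries a 3, and that of Runx3 +/WRPW library 2 carries the name of an aligner; the sample records decided the assignment.

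All genes were fitted in R 4.3.3 with edgeR 4.0.16 (TMM factors 0.981 to 1.03, filterByExpr at 10 counts, glmQLFit, glmQLFTest). P-values were adjusted by Benjamini-Hochberg over the 13666 genes tested, with a call under 0.05. Fold changes have Runx3 +/WRPW on top and come from the fit. SDs within genotypes and ratios between libraries used a pseudocount of 0.5 CPM. Ratios of counts within a library were compared by exact permutation. Floors cover counting error only. The alternatives tried were DESeq2 1.42.0, limma-voom (limma 3.58.1), RLE or upper-quartile scaling, robust dispersion, no low-count filter, a filter of 1 CPM throughout a genotype, a block on replicate number, and each library left out.

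Coordinates, exon lengths and overlaps came from GENCODE M21 (GRCm38) and promoter sequences from RefSeq (GRCm38.p6), with an entry for 60 of the 74 members.

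The members, role lists and tests were chosen with earlier results of these data known. Named with values were all cytosolic heat-inducible and constitutive members, the called genes of each other member list or else the 2 with the highest level, and up to 4 called genes of each other pathway list. Chosen after their values were seen were Hspe1, Dnaja3, Dnajc4, Dnajb12, Hspa5, Hsp90b1, Dnajc3, Dnajb9, Dnajb11, Dnajc1, Dnajc9, Dnajc6, Hspa1l, Hsf1, Stip1, Ahsa1, Jun and the other genes of the shared library pattern. Hspbap1 and Hspbp1 are members and also stand on a pathway list each. The values of 1 marker gene and 1 pathway gene are not reported here.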

Additional observations from a re-analysis of the deposited data

How the results depend on the processing

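RLE, upper-quartile, robust and 1 CPM settings each gave the same 6 calls among the members, and no called member changed sign under any alternative. DESeq2 called 9 members (6 lower, adding Dnajc9, Hspbap1 and Dnajc1), with 2 ER chaperones and 2 nuclear J proteins lower, 1 other heat-inducible gene and 5 ER partners; limma-voom added Hspbap1, the 1 other heat-inducible gene called there. Without the low-count filter 4 calls were kept, with 0 ER chaperones higher, 0 nuclear J proteins lower and 1 ER partner called; that fit tested 28583 genes and shifted the median of all genes to 0.70. The difference between Runx3 +/+ libraries 1 and 2 did not follow that between Runx3 +/WRPW libraries 1 and 2 (correlation -0.0069). This value leaves out Runx3 +/WRPW library 3, so it cannot show whether that library pairs with another. With the replicate number as a block 3 calls were kept (Dnaja4, Dnajb2, Dnajc10), so 1 member was lower. Under it 0 heat-inducible genes were lower, 0 ER chaperones higher, 0 nuclear J proteins lower and 0 ER partners called. The log2 differences of the 4 pair ratios were then -0.51, 1.86, 0.02 and -0.14 in the order given. 754 of 13666 genes were called under the block, against 1855. Leaving out each library gave 0 to 2 members higher and 0 to 3 lower; lists of 0 to 1 heat-inducible higher, 0 to 1 heat-inducible lower, 0 to 1 constitutive higher, 0 ER higher, 0 to 1 ER lower, 0 to 1 nuclear lower, 0 to 1 vesicle lower (Dnajc6, without Runx3 +/WRPW library 2) and 0 ER partners. Without Runx3 +/+ library 1 or 2 only Dnajb5 or none of the 6 stayed called, 542 or 277 of all genes were, and the lone Runx3 +/+ library is assumed to vary as the others do. Pair ratios ran from -0.53 to -0.28 for Hsp90aa1 over Hsp90ab1, 0.60 to 3.64 for Hspa1a plus Hspa1b over Hspa8, -0.30 to 0.75 for Hsph1 over Hspa4 and -0.40 to 0.35 for Dnaja1 over Dnaja2; the last 2 turned sign, at -0.30 without Runx3 +/+ library 1 for the first of them and at 0.07, 0.001 and 0.35 without Runx3 +/WRPW library 1, Runx3 +/WRPW library 2 and Runx3 +/+ library 2 for the other. The cause of these changes was not tested, beyond the fewer libraries or the more genes in the fit. For single named genes, 370 of 415 alternative values kept their side of the threshold and 45 lost the call.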

Other observations

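Bag3, a cochaperone induced with Hsp70, was named after its values were seen. It had 93, 49 and 92 counts in Runx3 +/WRPW and 20 and 53 counts in Runx3 +/+ (log2 fold change 1.03 ± 0.50, edgeR adjusted p = 0.232).

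Among the 6085 genes whose mean log2 CPM was 5 or more, 28 were at least 25% higher in Runx3 +/WRPW library 3 than in libraries 1 and 2 and in Runx3 +/+ library 2 than in library 1. Of these, 7 were members and 6 were other genes of the pathway lists (Cacybp, Ptges3, Ahsa2, Ahsa1, Stip1, Chordc1), leaving 15 from all other genes. The 3 library pairs and the threshold were chosen after the values were seen, and the labels give no batch or date to set beside them. The column header of Runx3 +/+ library 2 carries a 3, as given above. What that number stands for is not stated, and a link to Runx3 +/WRPW library 3 was not tested.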
